A study of Penicillium oxalicum with 6 samples.

Results

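The genes described here are 40 genes of *P. oxalicum* HP7-1 that encode carbohydrate-active enzymes (CAZymes) or carbohydrate-binding proteins of classes other than the glycoside hydrolases (GH). They were taken from the study's list of 1114 differential expression genes (DEGs) between the control strain Δ*PoxKu70* and Δ*PoxMKK1*, the deletion mutant made from it, as the listed genes with a CAZyme family, no GH family and no assignment to the plant cell-wall degrading enzymes (CWDEs). They make up 40 of the 133 listed CAZyme genes and 40 of the 9834 genes of the data, and comprise 13 glycosyltransferases (GT), 14 auxiliary activity enzymes (AA), 9 carbohydrate esterases (CE) and 4 genes with only a carbohydrate-binding module (CBM). No polysaccharide lyase fell under the rule. The list was made from the same 6 libraries, with a ratio of mean FPKM of at least 2 and a probability of at least 0.8, so the direction and size of change of these genes chose them and are given below as a description without p-values.

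*P. oxalicum* is a soil fungus that secretes cellulases and hemicellulases, and PoxMKK1, encoded by *POX07948*, is a protein kinase of a mitogen-activated protein kinase cascade. The control Δ*PoxKu70* had its *Ku70* homologue *POX01583*, a gene of non-homologous end joining, replaced by a hygromycin resistance gene. Δ*PoxMKK1* carries that replacement as well, and in addition had *PoxMKK1* replaced by a G418 resistance gene. Mycelia of each strain were grown on glucose, moved to medium with 2% Avicel, a microcrystalline cellulose, at 28 °C, and collected after 24 h as 3 biological repeats, labelled F, S and T. Whether the repeats came from more than a single transformant of Δ*PoxMKK1* is not given in the sources used here, and the complemented strain was not analysed here.

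These enzyme classes act on sugars in different ways. GTs build chains from activated sugars, and in fungi many of them work in the Golgi on the mannose-rich glycans of secreted and wall proteins. AA enzymes are redox enzymes, among them laccases (AA1), FAD-dependent sugar and alcohol oxidases (AA3 and AA7) and the copper-dependent lytic polysaccharide monooxygenases (LPMO), CEs remove acyl groups, and CBMs hold a protein to its substrate. None of the 40 is listed as an enzyme of plant wall degradation, and several belong to families known for the fungus's own wall, storage polysaccharide or pigment.

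The total expected count, the estimated number of reads assigned to genes, was 13687087 to 14042791 per library. *PoxMKK1* itself was at 2, 1 and 0 counts in Δ*PoxMKK1* (replicates F, S and T, an order kept throughout) and at 656, 592 and 753 counts in Δ*PoxKu70*. *POX01583* still held 942 to 1365 counts in every library, although its replacement is stated for each strain. Where in the gene these reads lie was not examined. The actin gene *POX09248* had a log2 fold change of -0.07. *PoxBrlA* (*POX06534*), the central activator of conidiation, rose by 3.95 on the log2 scale in Δ*PoxMKK1* (adjusted p = 0.00302, edgeR's quasi-likelihood test), as did *PoxAbaA* (*POX07025*) at 4.55 and *PoxFlbD* (*POX07099*) at 1.42. The FPKM of these 3 regulators summed to between 915 and 996 in the libraries of Δ*PoxMKK1* and to between 127 and 256 in those of Δ*PoxKu70*. Their part in the results below was not tested. In RNA of whole mycelium, fewer cells of a kind and less RNA per cell cannot be told apart.

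Of the 40 genes, 24 were higher and 16 lower in Δ*PoxMKK1*, and in all 40 the 3 FPKM values of a strain lay wholly on one side of the 3 values of the other. FPKM is the read count divided by transcript length and by the size of the library, a scale on which genes of different length can be compared. Over all 8749 tested genes 59.0% had such separate groups, 35.3% with Δ*PoxMKK1* higher and 23.6% with it lower. With the adjusted p of edgeR's quasi-likelihood test below 0.05 and a log2 fold change of 1 or more in either direction, 39 of the 40 passed (23 up and 16 down), where 19.8% of all tested genes did (10.8% up and 8.93% down). Since the same contrast chose the genes, nothing is read from that count. The gene that did not pass was *POX08694*, of AA1. The median log2 fold change was 1.56 over the 40 genes and 0.01 over all tested genes. The 24 higher genes had a median of 2.89 and the 16 lower genes of -1.59, so the higher genes also spanned larger changes, up to 9.85 in *POX08758*, than the lower ones, down to -2.77 in *POX01986*. Computed anew from the FPKM values, the log2 ratios of mean FPKM closest to the fold threshold were those of *POX03368*, *POX00347* and *POX05700*, at -1.03, -1.10 and 1.11. The list's own probabilities were not used, and by a replicate-noise probability computed in their place, which need not equal them, *POX02977* (0.807) and *POX03523* (0.828) were closest to 0.8. Families are given only for listed genes, so no gene just outside a threshold can be shown.

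**Figure D1:**
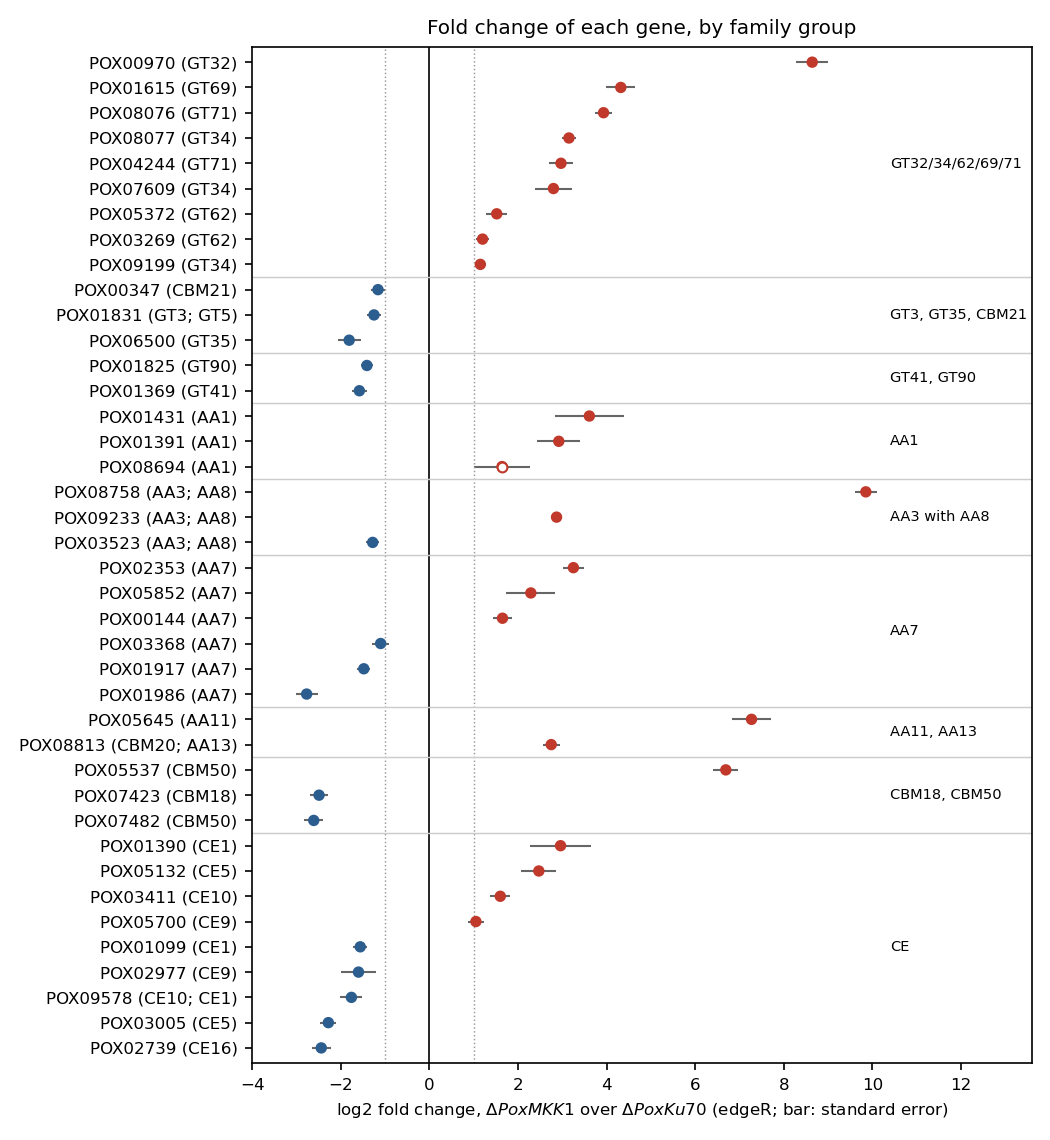
Log2 fold changes of the 40 genes, Δ*PoxMKK1* over Δ*PoxKu70*, from edgeR, with bars for the standard error and dotted lines at -1 and 1. Red points are higher and blue points lower in Δ*PoxMKK1*, the open point is *POX08694*, which did not pass the test, and all 9 genes of GT32, GT34, GT62, GT69 and GT71 lie at 1.15 or above while the 3 genes of GT3, GT35 and CBM21 lie at -1.16 or below.

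By class, the CAZyme genes outside the GH families and the CWDEs did not move as a block. Of the 13 GT genes 9 were up and 4 down, with a median log2 fold change of 1.52. Of the 14 AA genes 10 were higher and 4 lower, with a median of 2.52. Of the 9 CE genes 4 were up and 5 down, with a median of -1.56, and of the 4 CBM genes 1 was up and 3 down, with a median of -1.83. The summed FPKM of the 40 genes was 5365 ± 409 for Δ*PoxMKK1* and 2804 ± 163 for Δ*PoxKu70* (SD, n = 3 each). Most of this difference lay in the AA genes, which summed to 3051 ± 422 in Δ*PoxMKK1* and 657 ± 277 in Δ*PoxKu70*. For the GT genes the sum went the other way, at 696 ± 22.9 in Δ*PoxMKK1* and 1001 ± 172 in Δ*PoxKu70*, although most GT genes were up, and each of the 4 GT genes that were down stood at a higher FPKM in Δ*PoxKu70* than any of the 9 that were up. For comparison, the listed GH genes outside the CWDEs were split in a like way, with 29 up and 17 down of 46 and a median of 1.61, whereas of the 37 listed GH genes within the CWDEs 6 were up and 30 down, with a median of -1.66. Of the 10 listed CWDE genes without a GH family, 2 were up and 8 down. The difference between these lists was not tested, since each was chosen by the same contrast.

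**Figure D2:**
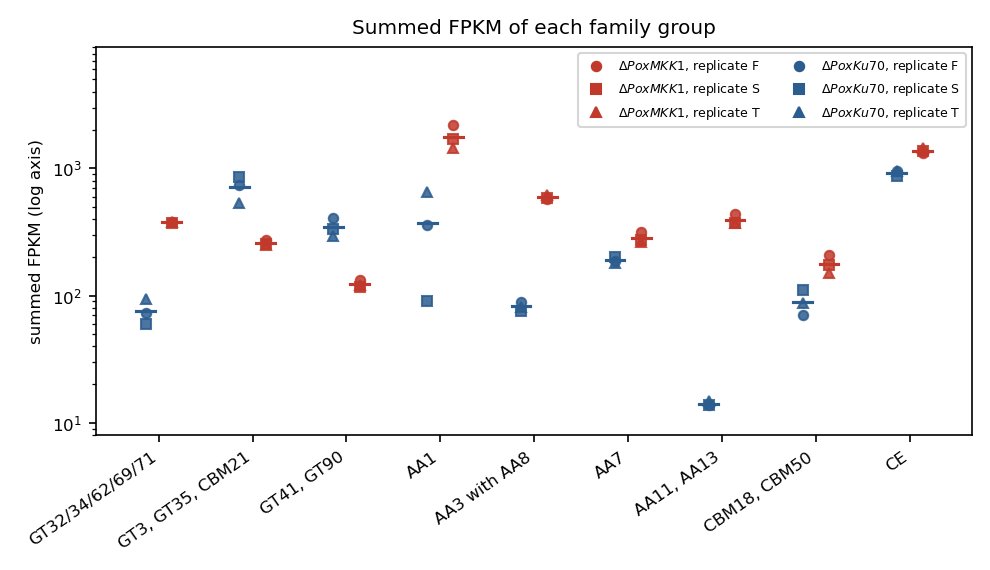
Summed FPKM (log axis) of the genes of each family group in each library, blue for Δ*PoxKu70* and red for Δ*PoxMKK1*, with a bar at the mean of 3 libraries. In every group the values of the strains are separate. AA1 spreads widely among the libraries of Δ*PoxKu70*, from 91.4 to 658, and the groups GT3, GT35, CBM21 and GT41, GT90 are the ones that sit lower in Δ*PoxMKK1*.

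The families GT32, GT34, GT62 and GT71 contain fungal mannosyltransferases that extend the outer chains of N-glycans and mannan in yeast. With GT69, which also holds a fungal mannosyltransferase, these families had 9 listed genes. All 9 were up in Δ*PoxMKK1*, with log2 fold changes of 1.15 to 8.64 and a median of 2.97. Their summed FPKM was 376, 373 and 378 in Δ*PoxMKK1* and 72.9, 59.5 and 93.3 in Δ*PoxKu70*, a 4.99-fold difference of the means. The SD of the sum was 2.28 in Δ*PoxMKK1* and 17.0 in Δ*PoxKu70*, so the libraries of Δ*PoxMKK1* lay close together.

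*POX00970* is the listed GT32 gene, the family of the yeast initiating mannosyltransferase Och1. It had FPKM values of 25.2, 33.3 and 32.7 in Δ*PoxMKK1*, and 0.06, 0 and 0.13 in Δ*PoxKu70*. These stand for 1393 counts against 3, and the ratio, scaled by the total counts of the libraries, was 467 with a 95% counting interval from 159.6 to 2269. The gene was near the limit of detection in Δ*PoxKu70* and clearly expressed in every library of Δ*PoxMKK1*.

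The GT34 family holds the yeast proteins Mnn10 and Mnn11 and the galactosyltransferase Gma12 of fission yeast. *POX07609* had FPKM values of 22.5, 27.9 and 26.8 in Δ*PoxMKK1* and 2.32, 1.78 and 6.56 in Δ*PoxKu70* (log2 fold change 2.80 ± 0.424) (standard error). *POX08077* had 28.5, 33.6 and 32.9 against 4.09, 3.24 and 2.87, a log2 fold change of 3.15 ± 0.168. *POX09199* had 48.0, 46.0 and 47.3 against 20.8, 18.2 and 21.9, a log2 fold change of 1.15 ± 0.0984. The GT34 gene with the highest level in Δ*PoxKu70* was therefore the one that differed least between strains.

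The GT62 family holds the yeast mannan polymerase subunits Mnn9, Anp1 and Van1. *POX05372*, the most abundant GT62 gene in Δ*PoxMKK1*, had FPKM values of 54.4, 57.6 and 59.5 in Δ*PoxMKK1* and 15.0, 14.7 and 27.6 in Δ*PoxKu70*. *POX03269* had 50.3, 37.3 and 43.2 against 18.2, 15.3 and 21.2. The differences, 2.88-fold and 2.29-fold, were smaller than in any other of the 9 genes but *POX09199*, and replicate T of Δ*PoxKu70* was the highest control library for each.

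The GT71 family holds the yeast terminal mannosyltransferase Mnn1, and GT69 the mannosyltransferase Cmt1 of *Cryptococcus*. *POX04244* (GT71) had FPKM values of 52.4, 43.1 and 45.02 in Δ*PoxMKK1* and 6.05, 3.29 and 7.81 in Δ*PoxKu70*, and *POX08076* (GT71) had 28.9, 31.3 and 30.8 against 2.48, 1.78 and 1.42. *POX01615* (GT69) had 66.0, 62.9 and 59.4 against 3.89, 1.36 and 3.77, which made it the most abundant of the 9 genes in Δ*PoxMKK1* and, after *POX00970*, the one that differed most, with a log2 fold change of 4.32 ± 0.324. In the control strain the 3 genes were all below an FPKM of 8, and their groups were far apart. Of the 9 genes, *POX00970*, *POX04244*, *POX05372* and *POX08076* carry the InterPro domain of nucleotide-diphospho-sugar transferases.

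The 3 listed genes of glycogen families were all down, where the rule left out any gene with a GH family or outside the list. They are *POX01831* (listed as GT3 and GT5), of the family of fungal glycogen synthase, *POX06500* (GT35), of the glycogen phosphorylase family, and *POX00347* (CBM21), whose module is found in yeast subunits that target protein phosphatase to glycogen. Their summed FPKM was 273, 256 and 249 in Δ*PoxMKK1* and 745, 855 and 539 in Δ*PoxKu70*, 2.75-fold higher in the control. *POX06500*, the most abundant, had FPKM values of 139, 125 and 103 in Δ*PoxMKK1* and 461, 493 and 274 in Δ*PoxKu70* (log2 fold change -1.81 ± 0.260.) *POX01831* had 74.0, 74.9 and 76.5 against 167, 204 and 142, and *POX00347* had 59.6, 56.3 and 69.5 against 117, 158 and 122. The listed gene of the synthase family and that of the phosphorylase family were thus lower together. In each of the 3 genes replicate S was the highest library of Δ*PoxKu70*.

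The remaining GT genes were *POX01369* and *POX01825*, and each was down. *POX01369*, listed as GT41, the family of animal O-linked N-acetylglucosamine transferase, had FPKM values of 109.7, 98.1 and 100 in Δ*PoxMKK1* and 358, 275 and 247 in Δ*PoxKu70* (log2 fold change -1.58 ± 0.176.) Its InterPro entries name tetratricopeptide repeats and a P-loop nucleoside triphosphatase fold rather than a glycosyltransferase domain, so its family rests on the listed CAZyme entry. *POX01825*, of GT90, the family of the capsule protein Cap10 of *Cryptococcus*, had 22.8, 17.99 and 20.9 against 50.5, 59.2 and 47.0, a log2 fold change of -1.41 ± 0.134.

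**Figure D3:**
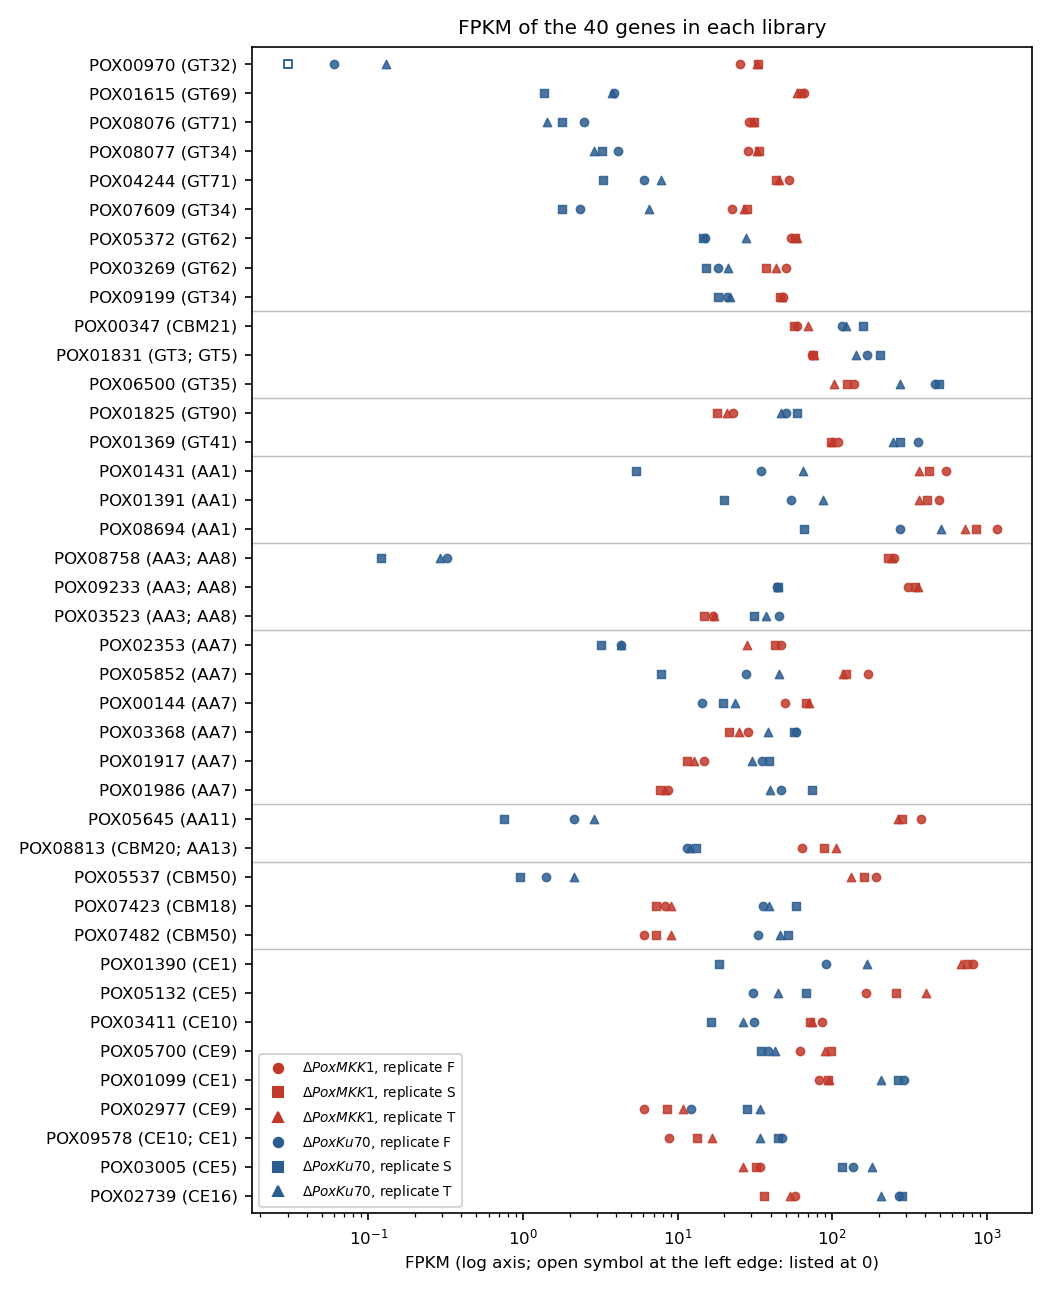
FPKM (log axis) of the 40 genes in each of the 6 libraries, red for Δ*PoxMKK1* and blue for Δ*PoxKu70*, with circles, squares and triangles for replicates F, S and T. An open symbol at the left edge marks the library where *POX00970* is listed at 0, lines divide the family groups, and the strains are separate in every row, by the least in *POX02977*.

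The AA1 genes encode multicopper oxidases, the family of laccases, which in *Aspergillus* includes enzymes of conidial pigment. All 3 listed AA1 genes carry multicopper oxidase domains and were higher in Δ*PoxMKK1*, with a summed FPKM of 2188, 1688 and 1455 against 362, 91.4 and 658. *POX08694*, the most abundant of all 40 genes in Δ*PoxMKK1*, had FPKM values of 1157, 850.1 and 722 in Δ*PoxMKK1* and 273, 65.9 and 505 in Δ*PoxKu70*. Its log2 fold change was 1.64 ± 0.634, and it did not pass edgeR's test, with control libraries that spread 7.66-fold. It passed when replicate S of Δ*PoxKu70* was left out, at 1.18, and when replicate T was left out, at 2.33. *POX01391* had 489.5, 412 and 367 against 54.1, 20.1 and 87.5, a log2 fold change of 2.92 ± 0.489. *POX01431* had 541, 425 and 365 against 34.9, 5.40 and 64.9, a log2 fold change of 3.61 ± 0.780. In each of the 3 genes replicate T was the highest and replicate S the lowest library of Δ*PoxKu70*, so the size of the difference depended on the control library.

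The AA3 genes encode glucose-methanol-choline (GMC) oxidoreductases. The list gives AA8, a haem-binding module, for each of the 3 genes as well. Their InterPro entries name GMC oxidoreductase and FAD-binding domains, and no haem-binding module. *POX08758* had the largest fold change of the 40 genes, with FPKM values of 251, 229.9 and 242 in Δ*PoxMKK1* and 0.32, 0.12 and 0.29 in Δ*PoxKu70* (log2 fold change 9.85 ± 0.246.) Its control values stand for only 8, 3 and 7 counts, so the size of its change is uncertain. *POX09233* had 311, 343 and 358 against 43.9, 44.8 and 44.3, a log2 fold change of 2.87 ± 0.112, with control libraries that were nearly identical. *POX03523* went the other way, with 16.9, 14.7 and 17.2 against 45.3, 31.3 and 37.2, a log2 fold change of -1.28 ± 0.153. The 3 genes of the same listed families thus ranged from nearly silent to moderately expressed in the control strain and moved in opposite directions.

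The AA7 genes encode oxidases of sugars and other alcohols with a covalently bound flavin, and all 6 share the FAD-linked oxidase domain. They were divided evenly, 3 up and 3 down, and their median log2 fold change was 0.27. *POX05852*, the most abundant in Δ*PoxMKK1*, had FPKM values of 169.9, 124 and 117 in Δ*PoxMKK1* and 27.6, 7.78 and 45.6 in Δ*PoxKu70* (log2 fold change 2.29 ± 0.556.) *POX02353* had 46.6, 42.6 and 28.0 against 4.29, 3.21 and 4.30, and *POX00144* had 49.2, 67.7 and 71.1 against 14.5, 19.7 and 23.5. Of these 3 genes, *POX02353* differed most, by 9.52-fold.

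Among the AA7 genes that were down, *POX01986* had the largest decrease of the 40 genes, with FPKM values of 8.62, 7.70 and 8.33 in Δ*PoxMKK1* and 46.8, 73.9 and 39.8 in Δ*PoxKu70* (log2 fold change -2.77 ± 0.249.) *POX01917* had 14.9, 11.5 and 12.8 against 35.1, 39.0 and 30.3, a log2 fold change of -1.48 ± 0.146. *POX03368* had 28.6, 21.6 and 25.01 against 58.4, 56.7 and 38.7, a log2 fold change of -1.10 ± 0.192. It is among the genes with the smallest change, and its log2 fold change was -0.98, short of the fold minimum, when replicate F of Δ*PoxKu70* was left out.

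The LPMO genes of the group were *POX05645* (AA11), of a family that cleaves chitin, and *POX08813* (CBM20 with AA13), of a family that cleaves starch. *POX05645* had FPKM values of 374, 283 and 268 in Δ*PoxMKK1* and 2.14, 0.75 and 2.86 in Δ*PoxKu70* (log2 fold change 7.27 ± 0.450.) *POX08813* had 64.2, 88.8 and 105 against 11.6, 13.1 and 11.9, a log2 fold change of 2.75 ± 0.191. Their sum was 395 ± 37.6 for Δ*PoxMKK1* and 14.1 ± 0.587 for Δ*PoxKu70* (SD, n = 3 each), a 27.9-fold difference that was the largest among the family groups. With only 2 genes, that ratio rested mainly on *POX05645*, at 308 ± 57.1 and 1.92 ± 1.07, whereas the mean FPKM of *POX08813* differed 7.05-fold. Neither belongs to AA9, the LPMO family of cellulose breakdown.

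Chitin-binding modules differed within a family. *POX05537* (CBM50, the LysM module) had FPKM values of 193, 160.4 and 133 in Δ*PoxMKK1* and 1.41, 0.95 and 2.14 in Δ*PoxKu70* (log2 fold change 6.69 ± 0.282.) *POX07482*, of the same family, had 6.08, 7.27 and 9.09 against 33.2, 51.8 and 46.0, a log2 fold change of -2.61 ± 0.210, and *POX07423* (CBM18) had 8.24, 7.28 and 9.10 against 35.7, 57.9 and 39.2, a log2 fold change of -2.49 ± 0.208. The LysM domain is listed for all 3 genes, so sharing it did not go with a shared direction. *POX05537* was barely expressed in the control strain, and the other 2 genes were at similar levels to each other in each strain.

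The CE genes encode esterases and deacetylases, several of families with substrates other than polysaccharides. *POX01390* (CE1) was the most abundant CE gene in Δ*PoxMKK1*, with FPKM values of 815, 744 and 684 in Δ*PoxMKK1* and 91.6, 18.7 and 168 in Δ*PoxKu70* (log2 fold change 2.96 ± 0.683.) *POX01099*, also of CE1, had 82.3, 94.0 and 95.6 against 290.4, 268 and 208, a log2 fold change of -1.56 ± 0.157. Their InterPro entries differ as well, since that of *POX01099* names an S-formylglutathione hydrolase, an enzyme of formaldehyde detoxification, and that of *POX01390* an esterase of the FrsA-like kind.

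Members of CE5, the family of cutinases and acetylxylan esterases, were also divided. *POX05132* had FPKM values of 167, 261 and 404 in Δ*PoxMKK1* and 30.8, 67.9 and 44.9 in Δ*PoxKu70* (log2 fold change 2.47 ± 0.396), and was the gene of the 40 whose libraries of Δ*PoxMKK1* spread most, by 2.42-fold. *POX03005* had 33.9, 32.1 and 26.5 against 136, 116 and 181, a log2 fold change of -2.28 ± 0.183. The cutinase genes thus exchanged rank, with *POX03005* the more abundant in Δ*PoxKu70* and *POX05132* the more abundant in Δ*PoxMKK1*, in every library.

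In CE9, the family of N-acetylglucosamine-6-phosphate deacetylase, *POX05700* carries the InterPro entry of that enzyme and *POX02977* that of allantoinase, an enzyme of purine breakdown with a related fold. *POX05700* had FPKM values of 61.5, 98.1 and 90.3 in Δ*PoxMKK1* and 38.6, 34.5 and 42.5 in Δ*PoxKu70*. Its log2 fold change, 1.05 ± 0.182, was the smallest increase of the 40 genes, and it was 0.91 without replicate S of Δ*PoxMKK1*, 0.99 without replicate T of that strain and 0.98 without replicate S of Δ*PoxKu70*, each short of the fold minimum. *POX02977* had 6.03, 8.53 and 10.9 against 12.2, 28.0 and 34.2, a log2 fold change of -1.60 ± 0.385. The highest library of Δ*PoxMKK1* and the lowest of Δ*PoxKu70* nearly met in that gene.

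In CE10, a family whose members mostly act on substrates other than carbohydrates, *POX03411* had FPKM values of 86.5, 72.1 and 74.6 in Δ*PoxMKK1* and 31.1, 16.5 and 26.3 in Δ*PoxKu70* (log2 fold change 1.60 ± 0.223.) *POX09578*, listed as CE10 and CE1, had 8.85, 13.4 and 16.7 against 47.6, 44.6 and 34.2, a log2 fold change of -1.76 ± 0.247. The acetylesterase-family gene *POX02739* (CE16) had 57.3, 36.0 and 53.8 against 272, 281 and 208, a log2 fold change of -2.44 ± 0.215, the largest decrease among the CE genes. As a class, the CE genes summed to 1378 ± 70.6 for Δ*PoxMKK1* and 924 ± 42.5 for Δ*PoxKu70* (SD, n = 3 each), of which *POX01390* alone gave 748 ± 65.9 and 92.8 ± 74.7, while the median of the 9 log2 fold changes was negative.

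The spread among the 3 control libraries was uneven over the 40 genes. The coefficient of variation of FPKM in Δ*PoxKu70* had a median of 39.5% over the higher genes, 19.2% over the lower genes and 13.0% over all genes, and in Δ*PoxMKK1* it had medians of 14.8%, 12.2% and 9.29%. Some of the higher genes had few control counts, such as 8, 3 and 7 in *POX08758*, where counting error widens the relative spread. How far low counts and the choice of the genes entered these medians was not tested. The highest control library was at least 5 times the lowest in 4 of the 39 genes above 0 in every library (10.3%), against 178 of 8700 genes (2.05%). The widest of these 4 was *POX01431*, from 5.40 to 64.9, and *POX01390* (9.01-fold), *POX08694* (7.66-fold) and *POX05852* (5.86-fold) came next, with *POX01391* after them at 4.36-fold. In each of these 5 genes replicate T was highest and replicate S lowest, an order also found in *PoxBrlA*, with 29.4, 5.38 and 42.2 in Δ*PoxKu70* and a 7.85-fold spread. The other conidiation regulators did not share that spread, as *PoxFlbD*, at 165, 117 and 211, had the same order with a 1.80-fold spread, and *PoxAbaA*, at 4.40, 3.88 and 3.32, was lowest in replicate T with a 1.33-fold spread. Over all 24 higher genes 15 had that order (62.5%), against 1 of the 16 lower genes and 21.6% of all tested genes. The lower genes more often had replicate S as the highest control library, in 9 of 16 (56.2%) against 26.6% of all tested genes. The 40 genes were chosen with these same control values, so the shares are not independent of that choice and nothing is read from them. The part of this difference between control libraries in the fold changes was not tested. No gene of the 40 changed direction when any library was left out, which follows from their separate FPKM groups and adds no support.

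**Figure D4:**
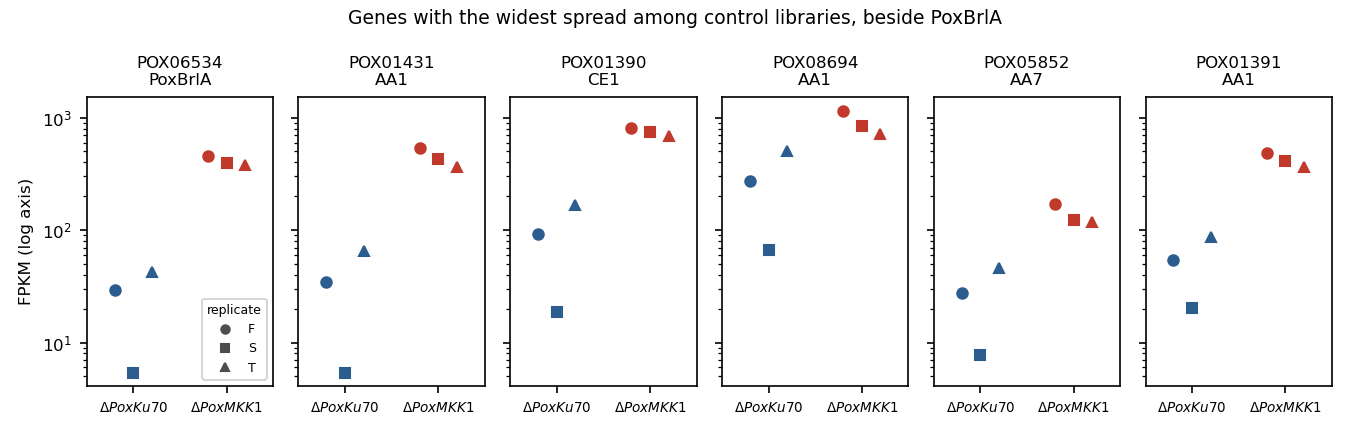
FPKM (log axis) of *PoxBrlA* and of the 5 genes of the group with the widest spread in Δ*PoxKu70*, in each library, blue for Δ*PoxKu70* and red for Δ*PoxMKK1*, with circles, squares and triangles for replicates F, S and T. In each panel replicate T is the highest and replicate S the lowest blue point, and all red points lie above the blue ones.

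The gene numbers offer a view that the rule did not use. Whether consecutive numbers are neighbours in the genome is not given in the sources used here, so numbers are used only as names that are near each other. The 40 genes include 2 pairs with consecutive numbers, *POX01390* (CE1) with *POX01391* (AA1), and *POX08076* (GT71) with *POX08077* (GT34), each of different families and each up in both genes. A further 76 genes have a number next to one of the 40, and 68 of them were tested. Of these, 24 passed (12 up and 12 down), or 35.3% against 19.8% of all tested genes. Among the 40 tested genes next to a higher gene 11 were up (27.5%) and 3 down (7.50%). Among the 28 next to a lower gene 1 was up (3.57%) and 9 were down (32.1%). Over all tested genes the shares were 10.8% up and 8.93% down. These counts are a description, since the 40 genes were chosen by the same contrast.

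Among these 24, the largest rises were beside a GT34 gene, an AA1 gene and an AA7 gene. Each gene given with an adjusted p here and in the next paragraph is itself on the study's list of DEGs. The same contrast made that list, so these adjusted p-values are no independent support. *POX08078*, which follows *POX08077* and carries an acyltransferase domain, had a mean FPKM of 23.7 ± 0.881 for Δ*PoxMKK1* and 0.343 ± 0.172 for Δ*PoxKu70* (SD, n = 3 each), and rose by 6.02 on the log2 scale (adjusted p = 9.38e-06, edgeR). *POX01430*, with the domains of a polyketide synthase, the enzyme class that begins fungal pigments among other products, stands before the AA1 gene *POX01431*. It rose from 9.04 ± 6.59 to 305 ± 51.7, a log2 fold change of 5.02 (adjusted p = 0.00143, edgeR), and its control values of 10.1, 1.98 and 15.0 followed the same order of libraries as the AA1 genes. *POX02352*, before the AA7 gene *POX02353*, rose from 15.3 ± 4.46 to 168 ± 46.5, a log2 fold change of 3.40 (adjusted p = 0.000180, edgeR). Around the AA1 gene *POX08694* the neighbours were mixed, with *POX08693* at a log2 fold change of -4.14 and *POX08695* at 2.06, each called. The mean FPKM of *POX08693* was low, at 0.130 in Δ*PoxMKK1* and 2.15 in Δ*PoxKu70*. That of *POX08695* was 12.2 in Δ*PoxMKK1* and 2.81 in Δ*PoxKu70*.

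Around the CE10 gene *POX03411*, the numbers *POX03410* and *POX03412* rose, with log2 fold changes of 1.29 and 2.94, and *POX03413*, named after its values were seen, rose as well, to a mean FPKM of 2414 ± 125 from 269.6 ± 199.6 (SD, n = 3 each, adjusted p = 0.00640, edgeR). Beside the chitin-binding gene *POX07423*, *POX07422* fell by 1.74 on the log2 scale and *POX07424*, a GH18 chitinase gene, fell by 2.12 (adjusted p = 0.000151, edgeR), from 39.3 ± 8.93 to 9.42 ± 0.662. Thus the chitin-binding gene and the chitinase gene next to it in number were lower together, at similar levels in each strain. Beside the AA7 gene *POX01986*, *POX01987* fell by 3.35, and beside the CBM50 gene *POX07482*, *POX07483* fell by 1.95. The LPMO genes differed in this respect. *POX08814*, with a sedolisin-type peptidase domain, rose beside *POX08813* with a log2 fold change of 3.07. *POX05646* fell by 2.71 beside *POX05645*, at a low mean FPKM of 5.39 in Δ*PoxKu70* and 0.840 in Δ*PoxMKK1*.

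The other called genes with the next number lay in most cases in the direction of the gene beside them. On the higher side, *POX01432* rose beside the AA1 gene *POX01431* (log2 fold change 1.14), *POX08757* beside the AA3 gene *POX08758* (1.91), *POX05851* beside the AA7 gene *POX05852* (1.81) and *POX05701* beside the CE9 gene *POX05700* (1.48). On the lower side, *POX03524* fell by 2.22 on the log2 scale beside the AA3 gene *POX03523*, *POX01826* fell by 2.17 beside the GT90 gene *POX01825*, *POX03369* fell by 1.57 beside the AA7 gene *POX03368*, *POX01918* fell by 1.46 beside the AA7 gene *POX01917*, and *POX06499* fell by 1.17 beside the GT35 gene *POX06500*. Against the direction of the gene beside them, *POX01614* fell by 2.81 next to the GT69 gene *POX01615* and *POX01368* rose by 1.21 next to the GT41 gene *POX01369*.

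**Figure D5:**
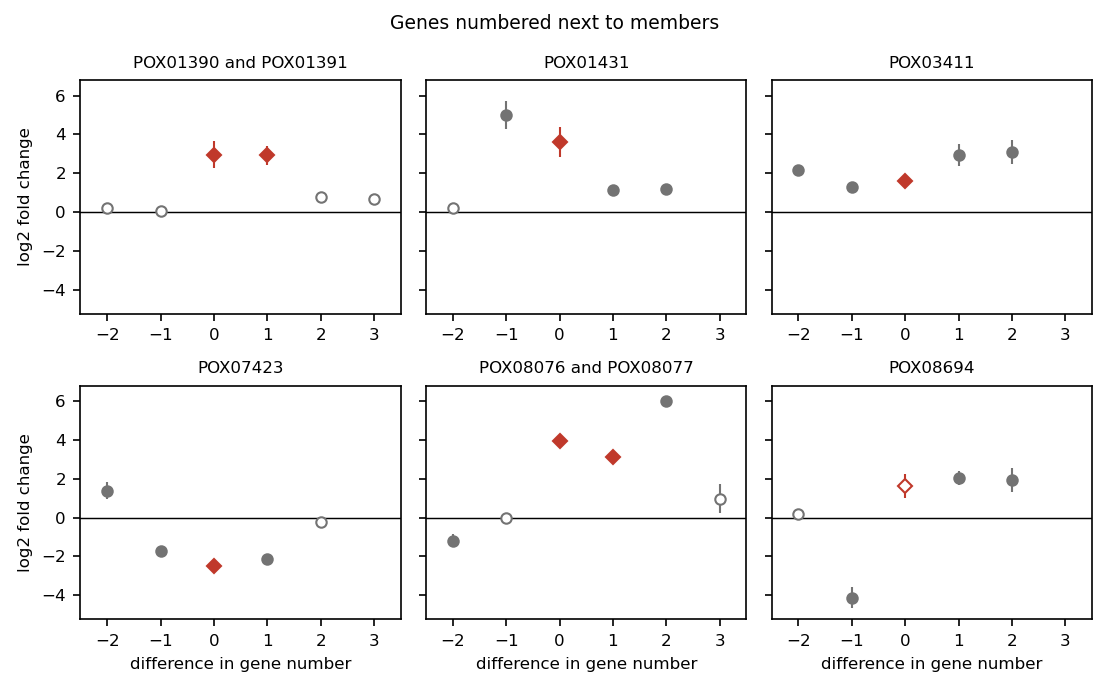
Log2 fold change, Δ*PoxMKK1* over Δ*PoxKu70*, with standard error, of genes whose numbers differ by at most 2 from those of 8 genes of the group (red diamonds), with grey circles for genes outside it. Filled symbols passed edgeR's test with the fold minimum. All 4 neighbours of *POX03411* are up, *POX08078* lies at 6.02 after *POX08077*, and the 2 genes next to *POX07423* are down with it.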

How the data were processed

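The authors sequenced oligo(dT)-enriched mRNA on a BGISEQ-500 platform, used the *P. oxalicum* HP7-1 genome as the reference. For 9834 genes in 6 libraries they deposited expected counts (estimated reads per gene, not normalized). The deposited FPKM values were normalized by the authors for length and depth. The submitters' processing notes name BWA 0.7.10-r789, Bowtie2 2.1.0, RSEM 1.2.12 and DESeq2, without their roles. Annotation version and use of strand are not given in the sources used, and none of the 40 genes had a fractional count.

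Families, CWDE labels and InterPro entries came from the study's list of DEGs. The list's own fold changes and probabilities were not used. Of the 9834 identifiers, 0 matched the RefSeq table of HP7-1, so no sequence or position is given.

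The rounded expected counts went into edgeR 4.0.16 under R 4.3.3 (filterByExpr, TMM, quasi-likelihood test), with Benjamini-Hochberg adjustment over all 8749 tested genes. A call needed an adjusted p below 0.05 with a log2 fold change of 1 or more either way. The step was tested on simulated counts. FPKM values with ± are means ± SD of 3 libraries. After a log2 fold change, ± gives a standard error, the absolute log2 fold change over the square root of the test's F statistic. The counting interval is a 95% Clopper-Pearson interval that covers counting error only. Alternatives were DESeq2 1.42.0, its size factors or library sizes alone in edgeR, removal of a trend with length, no filter on low counts, limma 3.58.1 for genes of mean FPKM 1 or more on log2(FPKM + 0.5), where 0.1 and 1 also served as pseudocount, each library left out, a replicate block, an adjusted p below 0.01, and an FPKM ratio of at least 2 with a replicate-noise probability of at least 0.8. Other tools were matplotlib 3.10.9, scipy 1.17.1, pandas 2.3.3 and numpy 2.4.6 under Python 3.11.15.

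All 40 genes are named. Values per library are given for all of them, and called genes with the next number are named beside them. The genes, lists and tests were chosen with earlier results of these data known. RT-qPCR, enzyme activities and phenotypes were not analysed here.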

Additional observations from a re-analysis of the deposited data

How the results depend on the processing

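Over 17 alternatives and 40 genes, 665 of 680 log2 fold changes kept their direction and their side of the thresholds, and 0 changed direction. With the FPKM groups of all 40 genes separate, a change of direction was hardly possible. *POX08694* passed in 7 alternatives. *POX03368* fell short in limma on log2(FPKM + 1), at -0.99, and, like *POX05700*, when single libraries were left out. At an adjusted p below 0.01, *POX01390*, *POX02977* and *POX05852* no longer passed, and 36 of the 40 genes did. The number of the 40 genes called ranged from 36 to 40. Under the FPKM ratio with a replicate-noise probability of at least 0.8, 1119 of 9834 genes were called in place of 1728 of 8749, with 482 down in place of 781, and 24 genes with numbers within 2 of a member of the group in place of 45. With each library left out, 855 to 1008 genes were up and 718 to 857 down. Scaling by library sizes alone moved the median of all genes by 0.06 and the share of calls that were up from 54.8% to 58.4%. Whether replicate letters pair the libraries cannot be settled with so few libraries per strain. The correlation of deviations between libraries with the same letter was 0.336 for F, 0.032 for S and 0.127 for T. Between unlike letters it ran from -0.384 to 0.173, and not every library correlated best with its own letter. With the replicate block, 959 genes were up and 780 down, and called were all 40 genes of the group, with *POX08694* at 2.03. Genes at few counts are limited by depth, here *POX00970* with 3 counts over the libraries of Δ*PoxKu70* and *POX08758* with 8, 3 and 7. In limma on log2(FPKM + 1) the log2 fold change of *POX08758* was 7.61 and that of *POX00970* was 4.87.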
